A study of Homo sapiens with 26 samples.

Results

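Keratins are the proteins of the intermediate filaments of epithelial cells. Each filament is built from obligate pairs of a type I and a type II keratin, and cell types differ in the pair they make: KRT8 with KRT18 in simple epithelia, KRT5 with KRT14 in the basal layer of the epidermis, KRT1 with KRT10 above it, and a further set, which includes KRT81 and KRT86, in the cortex of the hair. Melanoma and leukaemia cells have filaments of vimentin and make few keratins, although KRT8 and KRT18 are known from a share of melanomas.

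The 8 keratin genes described here are KRT7, KRT8, KRT10, KRT18, KRT19, KRT80, KRT81 and KRT86. They were selected by symbol from 63129 genes, among which are 75 keratin genes apart from pseudogenes. They were picked with values of these same libraries known: KRT81 for being high in A375 clone 4, and KRT80 for a fall with CPI203. Those contrasts, and those of KRT86 in clone 4, a near copy of KRT81, are therefore given as descriptions with no p-value. In A375 this also holds where another contrast of these genes takes up libraries used for the choice.

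The values come from RNA sequencing of 26 libraries in 13 groups of 2. A375 is an established BRAF-mutant melanoma line and NOMO-1 an established acute myeloid leukaemia line. A375 clone 4, A375 clone 1 and a NOMO-1 population had been derived as tolerant of CPI203, a small molecule that blocks the bromodomains of BET proteins, the readers of acetylated histones at active genes. Each is set against parental cells of its line. A375 cells of all 3 populations were taken after 6 h with 1 uM CPI203, after 6 h with DMSO, the vehicle, or untreated at 0 h; NOMO-1 cells were taken after 24 h with 1 uM CPI203 or with DMSO. Both A375 clones are single derivatives of 1 line, so what holds for a clone need not hold for tolerant cells in general. The titles put 4 untreated libraries with the clones while another of their label fields says parental, and the titles were followed.

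All levels are FPKM, fragments scaled to transcript length and library. Changes are differences of log2(FPKM + 1) ± SE from limma, which understate the change of genes near or under 1 FPKM, and a gene is called at a limma adjusted p under 0.05 over all genes tested. The labels do not say that the 2 libraries of a group came from separate cultures, so p-values measure the spread between libraries only. The number of fragments behind a value is not known, although the value of 1 fragment in rare genes puts the depth of the A375 libraries within 0.863 to 1.27 times that of the first untreated parental library, and that of NOMO-1 libraries within 1.04 to 1.14 times the first of theirs. In A375, 3 libraries stand apart from the rest: replicate 2 of clone 4 with CPI203, and replicate 1 with DMSO both of clone 4 and of parental cells. Replicates in those 3 groups differed by 0.218 to 0.280 on the log2 scale at the median gene, while the corresponding range over the remaining 6 groups of A375 was 0.0658 to 0.118. Of 8 melanocyte markers, 3 averaged 1 FPKM or more in A375: SOX10 at 126 to 318 FPKM, S100B at 17.9 to 83.4 and MITF at 3.47 to 16.1. TYR was at 0 and PMEL at 1.53 at most, so the sum of the 8 is mainly SOX10 and S100B. In NOMO-1, 7 of 8 myeloid markers averaged 1 FPKM or more. SPI1 was at 33.9 to 189 FPKM there, MPO at 1.67 to 436 and PTPRC at 0.244 to 59.4, while CD14 stayed at or below 0.723. Lineage markers differed between the populations: with DMSO the 8 melanocyte markers summed to 205 to 245 FPKM in clone 4 and 226 to 249 in clone 1, against 384 to 386 in parental A375 cells. The 8 myeloid markers summed there to 31.9 to 42.3 in clone 4 and 37.9 to 38.3 in clone 1, against 5.91 to 6.31 in parental cells, with MPO at 0 and CD33 up to 35.0 FPKM. In NOMO-1 with DMSO the myeloid markers summed to 633 to 726 FPKM in tolerant cells, against 1773 to 1808 in parental cells. The part of these differences in the keratin levels was not tested.

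Of the 8 members, 7 reached 1 FPKM in at least 2 A375 libraries and 5 did so in NOMO-1. KRT19, the smallest keratin and a type I partner in simple epithelia, did not exceed 0.0517 FPKM in any library, and in NOMO-1 KRT7 stayed at or below 0.226 and KRT80 at or below 0.157; these were not tested there. Among the other 67 keratins, KRT6B, KRT9, KRT14, KRT15, KRT16 and KRT222 passed the same level in A375, and KRT23 and KRT222 in NOMO-1. Defining epithelial genes were at or near 0 in the A375 libraries: CDH1, the cadherin of epithelial junctions, was at 0.0109 FPKM at most, EPCAM at 0.0836 and GRHL2 at 0.00598. Of 6 keratinocyte markers, TP63 was at 0.0786 FPKM at most, DSG3 at 0.0113 and KRT5, the usual partner of KRT14, at 0.228, whereas COL17A1 reached 2.43, KRT15 9.83 and KRT14 26.2. With DMSO the 6 summed to 31.1 to 38.6 FPKM in clone 4 and 17.4 to 19.8 in clone 1, against 6.46 to 8.21 in parental cells. The 12 epithelial markers summed to 1.04 to 3.40 FPKM in clone 4, 2.22 to 6.96 in clone 1 and 3.74 to 10.9 in parental cells, mainly CLDN4, and their part in the keratin levels was not tested. In bulk RNA, fewer cells that make a transcript and less of it per cell cannot be told apart.

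**Figure D1:**
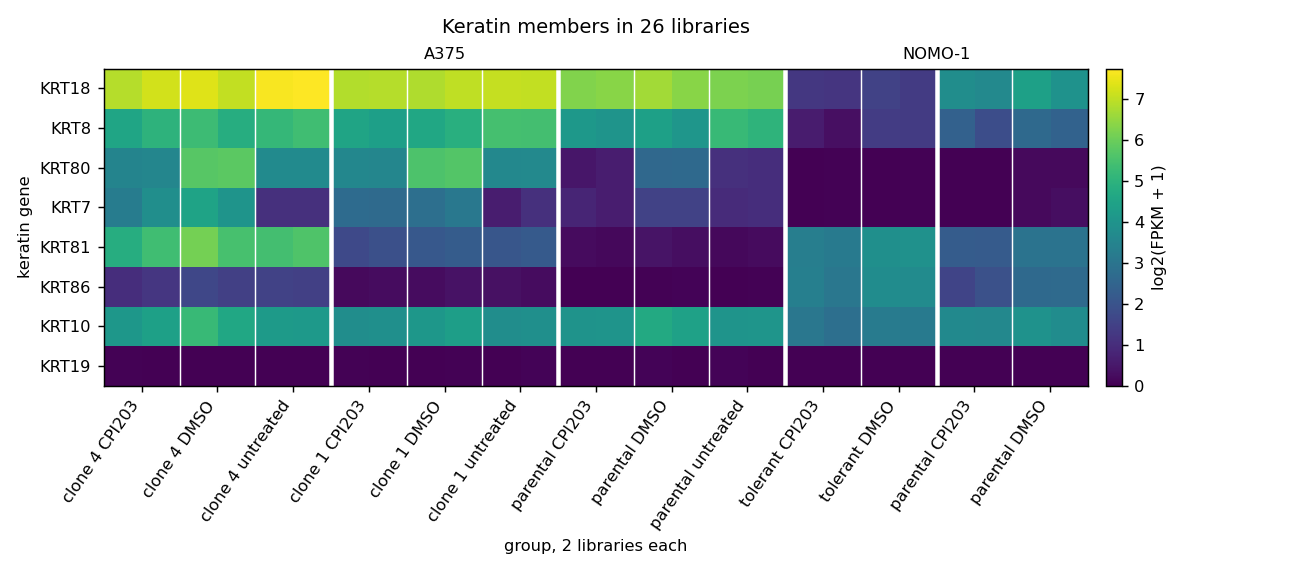
Heat map of log2(FPKM + 1) for the 8 keratin genes (rows) in all 26 libraries (columns, 2 per group), A375 on the left and NOMO-1 on the right. KRT18 is the brightest row in each A375 library, KRT81 is bright only in the 6 clone 4 libraries there, and KRT19 is dark in every library.

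In hg19, KRT80 (ENSG00000167767, chr12:52562780-52585784), KRT7 (ENSG00000135480, chr12:52626304-52645970), KRT86 (ENSG00000170442, chr12:52643084-52702947) and KRT81 (ENSG00000205426, chr12:52679697-52685318) lie side by side in the type II cluster, and KRT8 (ENSG00000170421, chr12:53290977-53343738) is followed there by KRT18 (ENSG00000111057, chr12:53342655-53346685), the only type I gene of that cluster. KRT10 (ENSG00000186395, chr17:38974369-38978847) and KRT19 (ENSG00000171345, chr17:39679869-39684560) lie in the type I cluster. By the deposited coordinates the span of KRT81 falls wholly within that of KRT86, KRT7 and KRT86 share 2887 bases, and KRT8 and KRT18 share 1084 bases. The deposited coordinates carry no strand. In GENCODE 29 KRT81 and KRT86 lie on opposite strands, as do KRT8 and KRT18. Whether the libraries kept strand is not given in the sources used here, so some fragments may have been split between these neighbours.

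KRT81 and KRT86 are also near copies, which matters for every value of the pair. Their coding sequences in GENCODE 29 (1518 and 1461 bases) are identical at 1372 of 1522 aligned columns, or 90.1%, with 605 bases in 1 identical run, and 721 of the 1469 windows of 50 bases in KRT81 (49.1%) occur unchanged in KRT86. With KRT83, the next hair keratin of the cluster, KRT81 shares 7.96% of such windows. Where the copies differ most, coding positions 1237 to 1326, they can be told apart by 19 bases, here in capitals; each stretch is read 5′ to 3′ on the coding strand and crosses an intron in GRCh38 (KRT81 at chr12:52286447-52287112, minus strand, and KRT86 at chr12:52306270-52308450, plus strand).
KRT81: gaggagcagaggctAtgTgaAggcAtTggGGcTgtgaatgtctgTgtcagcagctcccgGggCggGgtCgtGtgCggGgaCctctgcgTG
KRT86: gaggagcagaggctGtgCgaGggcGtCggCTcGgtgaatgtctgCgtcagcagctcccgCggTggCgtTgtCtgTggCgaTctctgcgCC
The long identical run begins at coding position 61 of both genes; its first 120 bases (KRT81 at chr12:52291286-52291405, minus strand, and KRT86 at chr12:52301977-52302096, plus strand, GRCh38), which hold no capital since no base differs, are shown because a fragment from them fits either gene.
KRT81 and KRT86: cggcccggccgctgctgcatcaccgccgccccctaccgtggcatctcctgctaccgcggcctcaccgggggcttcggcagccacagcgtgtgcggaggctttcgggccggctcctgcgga

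KRT81, a type II hair keratin, had 27.4 and 40.5 FPKM in clone 4 with CPI203, 69.5 and 44.3 with DMSO and 42.2 and 48.3 untreated. In clone 1 it had 2.26 and 2.72 FPKM with CPI203, 3.38 and 3.73 with DMSO and 3.21 and 3.61 untreated. In parental A375 cells it had 0.178 and 0.119 FPKM with CPI203, 0.318 and 0.210 with DMSO and 0.122 and 0.168 untreated. The 3 populations did not overlap, and within each the states differed far less than the populations did. Clone 4 over parental cells, the contrast used to choose the gene, came to 5.48 ± 0.20 in DMSO and 5.33 ± 0.20 untreated. Clone 1, whose own libraries the choice did not use, was higher than parental cells by 1.85 ± 0.20 in DMSO and by 1.95 ± 0.20 untreated. These 2 values are given with no p-value, since the choice used the parental libraries.

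KRT86, also a type II hair keratin, followed KRT81 at a lower level in A375. It had 1.04 and 1.31 FPKM in clone 4 with CPI203, 2.14 and 1.75 with DMSO and 1.90 and 1.76 untreated. In clone 1 it had 0.148 to 0.306 FPKM over the 6 libraries, and in parental cells 0.0488 FPKM at most, with both CPI203 libraries at 0. Again the 3 populations did not overlap. KRT86 stood at 3.07% to 4.50% of KRT81 in clone 4 and at 5.16% to 8.19% in clone 1, and whether KRT81 fragments were assigned to KRT86 was not tested. Its difference between clone 1 and parental cells was 0.27 ± 0.09 in DMSO. It was no longer called when any 1 of the 4 libraries was left out (0.21 to 0.33) or without the 3 libraries that stand apart (0.26). No p-value is given, since the choice used the parental libraries. KRT86 also reached 1 FPKM in A375 only in clone 4, so it was tested there only through that group.

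The 2 hair keratins were present in NOMO-1 at about equal levels. KRT81 had 9.01 and 7.96 FPKM in tolerant cells with CPI203 and 13.4 and 14.0 with DMSO, against 3.80 and 3.64 in parental cells with CPI203 and 6.77 and 6.64 with DMSO. KRT86 had 9.21 and 7.37 FPKM in tolerant cells with CPI203 and 12.7 and 12.4 with DMSO, against 2.04 and 2.75 in parental cells with CPI203 and 5.21 and 5.46 with DMSO. Tolerant libraries lay above parental ones of the same treatment, and CPI203 libraries below DMSO ones of the same cells, for both genes. KRT86 stood at 53.5% to 102% of KRT81 (median 85.6%), against a median of 4.83% over the A375 libraries, so the ratio of the copies differed between the lines.

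**Figure D2:**
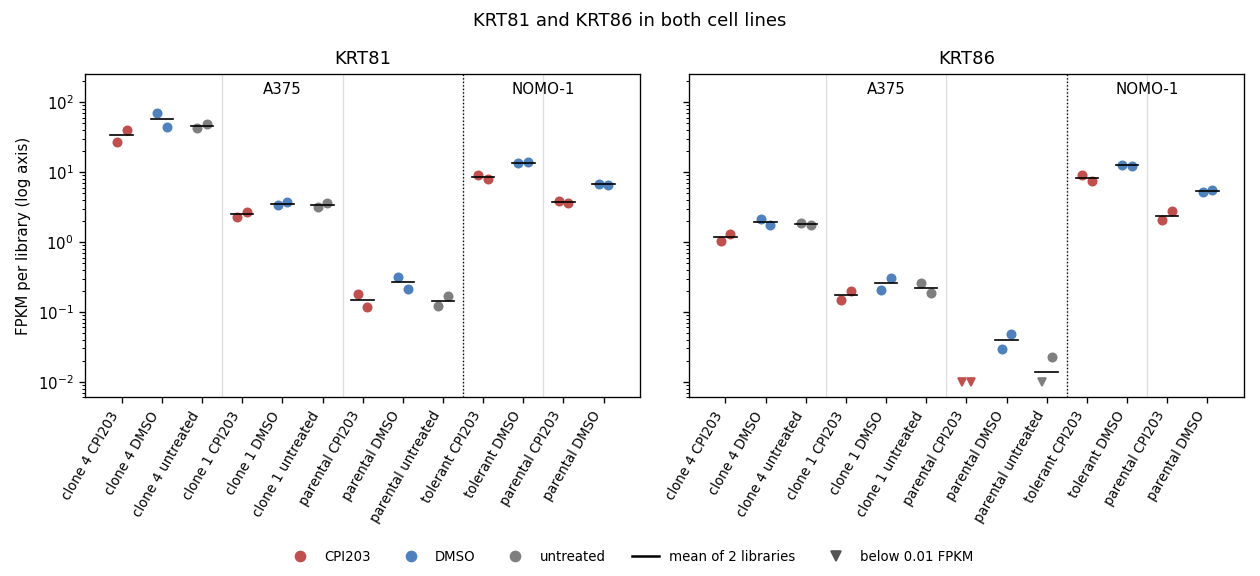
FPKM of KRT81 (left) and KRT86 (right) in each library on a log axis, with bars at the mean of the 2 libraries of a group; triangles mark values below 0.01 FPKM. In A375 both genes step down from clone 4 to clone 1 to parental cells, while in NOMO-1 the 2 genes sit at like levels and the tolerant DMSO libraries (13.4 and 14.0 FPKM of KRT81) are the highest.

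Most genes around KRT80, KRT7 and KRT81 that are no members stayed low in A375. Within 100 kb of KRT80, KRT7 or KRT81 the table lists 22 genes, and of those that are no members only C12orf44 and RP11-1100L3.7 reached 1 FPKM in 2 A375 libraries. C12orf44 averaged 77.3 ± 3.62 FPKM in clone 4, 59.8 ± 2.69 in clone 1 and 70.2 ± 12.04 in parental cells, all with DMSO (SD, n = 2 each). RP11-1100L3.7 averaged 22.9 ± 17.3, 11.6 ± 3.34 and 11.5 ± 10.7 FPKM in the same groups. Both lie within 100 kb of KRT80 only, so neither is a neighbour of KRT81 or KRT86 at that distance. KRT83, whose product is a hair keratin too, averaged 0.151 ± 0.0479 FPKM in clone 4, 0.0177 ± 0.0104 in clone 1 and 0.00270 ± 0.00382 in parental cells with DMSO, and KRT85, also of hair, averaged 0.172 ± 0.0668 in clone 4 and 0.0162 ± 0.00425 in clone 1 and was listed at 0 in all 6 parental libraries.

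KRT80 is a type II keratin made in many epithelia, where it lies near desmosomes. It had 10.4 and 10.8 FPKM in clone 4 with CPI203, 52.2 and 54.0 with DMSO and 12.01 and 11.96 untreated. Clone 1 had 11.04 and 10.7 FPKM with CPI203, 46.6 and 50.5 with DMSO and 11.3 and 11.6 untreated. In parental cells it had 0.376 and 0.527 FPKM with CPI203, 5.09 and 5.33 with DMSO and 1.08 and 1.03 untreated. All clone libraries lay above all parental ones, and in each population the DMSO libraries lay above both other states. Clone over parental came to 3.12 ± 0.08 for clone 4 and 2.995 ± 0.084 for clone 1 with DMSO. No p-value is given there, since the choice of KRT80 used those DMSO libraries. Untreated it came to 2.66 ± 0.08 and 2.60 ± 0.08 (limma adjusted p = 5.69e-11 and 7.73e-11). Between the clones, again with those DMSO libraries, KRT80 differed by 0.13 ± 0.08.

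The fall of KRT80 with CPI203, for which it was picked, was 2.22 ± 0.08 on the log2 scale in clone 4, 2.06 ± 0.08 in clone 1 and 2.10 ± 0.08 in parental cells. Its size relative to parental cells depends on the pseudocount, since the treated parental level is under 1 FPKM: with 0.1 in place of 1 added, KRT80 changed by -2.32 in clone 4, -2.15 in clone 1 and -3.28 in parental cells. DMSO for 6 h against untreated cells, a contrast with the same DMSO libraries, came to 2.06 ± 0.08 in clone 4, 1.99 ± 0.08 in clone 1 and 1.59 ± 0.08 in parental cells, given with no p-value since the choice of KRT80 used those libraries. The CPI203 values of the clones thus lay close to their untreated values, and those of parental cells below them; CPI203 was not tested against untreated cells. The vehicle, 6 h in culture and handling cannot be told apart in that contrast.

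KRT7, the type II keratin of ducts and glands, had 8.61 and 13.1 FPKM in clone 4 with CPI203, 21.5 and 15.003 with DMSO and 1.10 and 1.11 untreated. Clone 1 had 5.52 and 5.44 FPKM with CPI203, 6.11 and 7.53 with DMSO and 0.521 and 1.09 untreated. In parental cells it had 0.745 and 0.547 FPKM with CPI203, 1.88 and 1.90 with DMSO and 0.920 and 1.01 untreated. Untreated libraries of clone 1 and parental cells overlapped, with those of clone 4 just above them, whereas the 3 populations were well apart with DMSO. With DMSO KRT7 was higher by 2.71 ± 0.20 in clone 4 and by 1.43 ± 0.20 in clone 1 than in parental cells (limma adjusted p = 3.6e-07 and 0.000158). Untreated it differed by 0.10 ± 0.20 and -0.14 ± 0.20 (limma adjusted p = 0.715 and 0.596).

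DMSO over untreated came to 3.17 ± 0.20 for KRT7 in clone 4, 2.13 ± 0.20 in clone 1 and 0.56 ± 0.20 in parental cells (limma adjusted p = 3.11e-07, 4.51e-06 and 0.0654). The difference between clone and parental cells in this change, a comparison added after the values were seen, was 2.62 ± 0.28 for clone 4 and 1.57 ± 0.28 for clone 1 (limma adjusted p = 5.43e-05 and 0.0018). For KRT80 it was 0.46 ± 0.12 and 0.40 ± 0.12, again with those DMSO libraries. Its call was lost under quantile normalization (0.20 and 0.18) and median-ratio scaling (0.34 and 0.25), and the value turned to -0.061 and -0.12 with a pseudocount of 0.1. Of the 8 members 3 were called in this added comparison for clone 4, 2 of them higher and 1, KRT18, lower, where 14.7% of all genes were called higher and 6.03% lower. For clone 1 the 2 genes named were called, both higher, KRT80 being in both counts with libraries its choice used, where 15.5% of all genes were called higher and 5.98% lower.

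**Figure D3:**
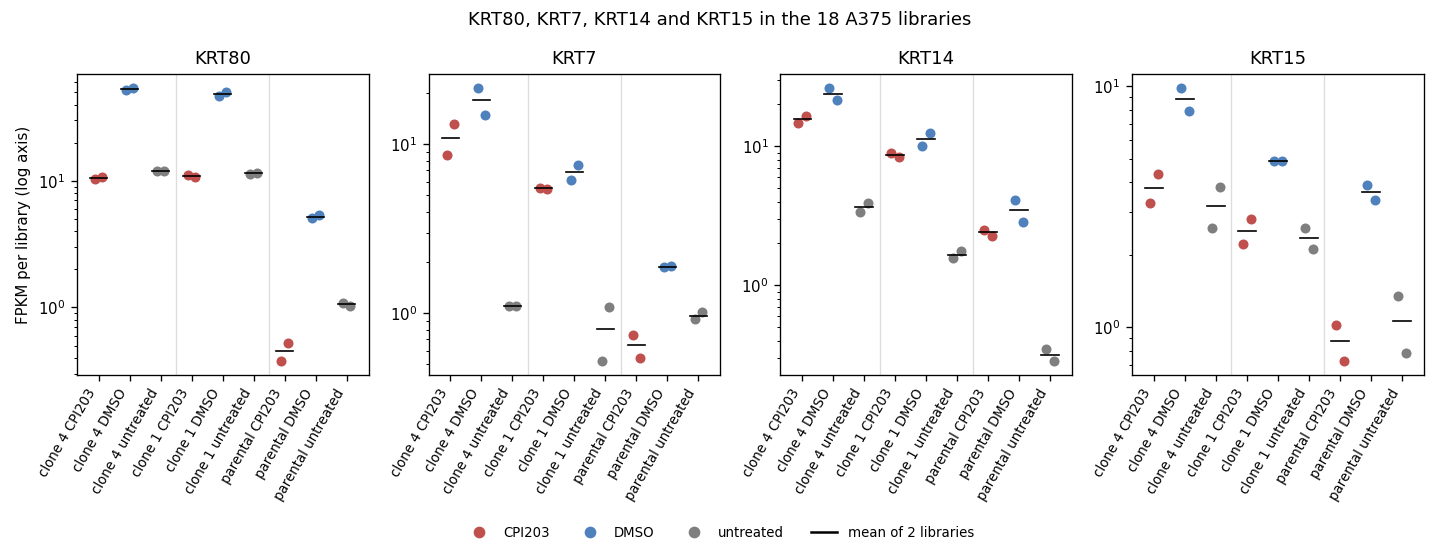
FPKM of KRT80, KRT7, KRT14 and KRT15 in each A375 library on log axes that differ between panels, with bars at the mean of 2 libraries. In every population the DMSO libraries are the highest for all 4 genes; KRT80 with CPI203 is near its untreated level in the clones, while KRT7 and KRT14 with CPI203 stay above theirs there.

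KRT14 and KRT15, type I keratins of basal epidermis, are not among the 8. KRT14 had 14.7 and 16.5 FPKM in clone 4 with CPI203, 26.2 and 21.4 with DMSO and 3.39 and 3.90 untreated, against 2.52 and 2.28, 4.09 and 2.85, and 0.346 and 0.285 in parental cells in the same 3 states. It was higher with DMSO than untreated by 2.41 ± 0.15 in clone 4, 2.20 ± 0.15 in clone 1 and 1.75 ± 0.15 in parental cells (limma adjusted p = 2.42e-07, 3.59e-07 and 1.3e-05). With CPI203 KRT14 changed by -0.57 ± 0.15 in clone 4 (limma adjusted p = 0.0142), while the values of -0.35 ± 0.15 in clone 1 and -0.38 ± 0.15 in parental cells were not called (limma adjusted p = 0.118 and 0.0616). KRT15 fell with CPI203 by 1.04 ± 0.18 in clone 4, 0.75 ± 0.18 in clone 1 and 1.31 ± 0.18 in parental cells (limma adjusted p = 0.00148, 0.0112 and 0.000141). With DMSO KRT15 was higher than in parental cells by 1.09 ± 0.18 in clone 4 (limma adjusted p = 0.000549) and differed by 0.35 ± 0.18 in clone 1 (limma adjusted p = 0.196). KRT6B, a type II keratin of stressed epidermis, went the other way between populations. With DMSO its log2 change against parental cells was -1.07 ± 0.11 in clone 4 and -0.83 ± 0.11 in clone 1. No p-value is given, since KRT6B reached 1 FPKM in A375 only in the parental DMSO libraries and clone 1 DMSO replicate 2.

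KRT18 and KRT8 form the pair of simple epithelia, and KRT18 had the highest FPKM of the 8 in each A375 library. It had 118 and 148 FPKM in clone 4 with CPI203, 162 and 130 with DMSO and 203 and 213 untreated. In clone 1 it had 114 and 116 FPKM with CPI203, 111 and 128 with DMSO and 132 and 130 untreated. In parental cells it had 76.8 and 81.5 FPKM with CPI203, 99.7 and 82.1 with DMSO and 73.1 and 70.0 untreated. All clone libraries were above all parental ones. Untreated, KRT18 was higher than in parental cells by 1.53 ± 0.13 in clone 4 and 0.87 ± 0.13 in clone 1 (limma adjusted p = 7.74e-07 and 0.000142), and clone 4 was above clone 1 by 0.66 ± 0.13 (limma adjusted p = 0.00732), a call lost without clone 1 replicate 2 (0.65) or clone 4 replicate 2 (0.62).

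With DMSO the gap of KRT18 was 0.67 ± 0.13 for clone 4 (limma adjusted p = 0.00188) and 0.39 ± 0.13 for clone 1 (limma adjusted p = 0.0484). The clone 1 call was lost without parental replicate 2 (0.25, limma adjusted p = 0.25) and without either clone 1 library (0.29 and 0.49), and the clone 4 call with only the libraries compared in the fit (limma adjusted p = 0.15). DMSO over untreated came to -0.52 ± 0.13 for KRT18 in clone 4, -0.14 ± 0.13 in clone 1 and 0.33 ± 0.13 in parental cells (limma adjusted p = 0.0084, 0.431 and 0.093). The change in clone 4 differed from that in parental cells by -0.85 ± 0.19 (limma adjusted p = 0.00674).

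KRT8 had 22.6 and 31.3 FPKM in clone 4 with CPI203, 38.3 and 27.0 with DMSO and 34.9 and 40.4 untreated. Clone 1 had 22.0 and 19.7 FPKM with CPI203, 23.7 and 28.4 with DMSO and 43.1 and 41.9 untreated. In parental cells it had 16.6 and 15.1 FPKM with CPI203, 20.2 and 15.6 with DMSO and 35.9 and 31.7 untreated. Untreated libraries of clone 1 and parental cells lay above those with DMSO, while in clone 4 the 2 states overlapped. DMSO over untreated came to -0.22 ± 0.18 in clone 4, -0.69 ± 0.18 in clone 1 and -0.89 ± 0.18 in parental cells (limma adjusted p = 0.37, 0.0089 and 0.00466), and the clone 1 call was lost without its DMSO replicate 1 (-0.56, limma adjusted p = 0.078). KRT8 thus stood at 45.2% to 49.1% of KRT18 in untreated parental cells, at 19.1% to 20.3% with DMSO, and in untreated clone 4 at 17.2% to 19.0%. With DMSO KRT8 was higher than in parental cells by 0.82 ± 0.18 in clone 4 (limma adjusted p = 0.00424) and differed by 0.52 ± 0.18 in clone 1 (limma adjusted p = 0.0564), a gene called there without parental DMSO replicate 1 (0.70, limma adjusted p = 0.0412).

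**Figure D4:**
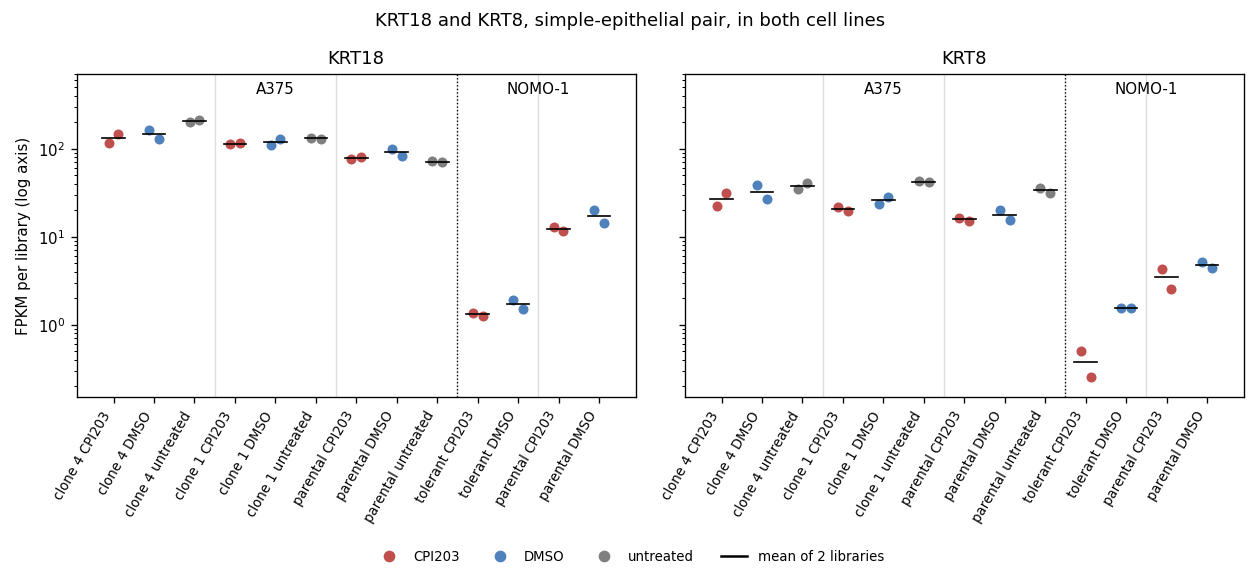
FPKM of KRT18 (left) and KRT8 (right) in each library on a log axis, with bars at the mean of 2 libraries. KRT18 is highest in untreated clone 4 (203 and 213 FPKM), and in NOMO-1 both genes are lower in tolerant than in parental cells.

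Both genes have many processed pseudogenes, 74 named for KRT18 and 50 for KRT8 in the table, and fragments of the genes can be assigned to them. The KRT18 copies held 31.3% to 34.0% of the summed FPKM of gene and copies in A375 and 30.9% to 67.8% in NOMO-1, and the KRT8 copies 22.0% to 39.9% and 56.3% to 96.6%. With the copies added to the gene, an alternative chosen after the values were seen, KRT18 in clone 1 with DMSO was no longer called over parental cells (0.38, limma adjusted p = 0.0581), KRT8 there was (0.46, limma adjusted p = 0.0449), and the lower KRT8 of clone 1 with DMSO was lost (-0.40, limma adjusted p = 0.0508).

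In NOMO-1 the simple pair was far lower in tolerant cells. KRT18 had 1.37 and 1.27 FPKM in tolerant cells with CPI203 and 1.90 and 1.53 with DMSO, against 13.0 and 11.6 in parental cells with CPI203 and 20.2 and 14.3 with DMSO. KRT8 had 0.502 and 0.254 FPKM in tolerant cells with CPI203 and 1.57 and 1.56 with DMSO, against 4.34 and 2.57 in parental cells with CPI203 and 5.20 and 4.37 with DMSO. No tolerant library reached a parental one in either gene. With DMSO, tolerant over parental came to -2.73 ± 0.15 for KRT18 and -1.17 ± 0.18 for KRT8 (limma adjusted p = 5.11e-07 and 0.000436). With the copies added KRT18 gave -2.30 and KRT8 only -0.31 (limma adjusted p = 0.0313), so the size of the KRT8 difference rests on how fragments were split with its copies.

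KRT10, the type I keratin of differentiating epidermis, had 15.98 and 20.1 FPKM in clone 4 with CPI203, 36.5 and 23.2 with DMSO and 17.4 and 16.7 untreated, and 12.8 to 19.2 FPKM over the clone 1 libraries. Parental cells had 14.8 and 15.1 FPKM with CPI203, 25.1 and 20.8 with DMSO and 15.1 and 15.6 untreated. The DMSO libraries were the highest of each population, those of clone 4 and parental cells being from groups with a library that stands apart. Neither clone was called against parental cells in either state (limma adjusted p = 0.158 to 0.51). In NOMO-1 KRT10 had 8.38 and 8.11 FPKM in tolerant cells with DMSO, against 14.5 and 12.5 in parental cells (-0.64 ± 0.11, limma adjusted p = 0.000842).

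Counted over the 8 members, 6 were called higher in clone 4 than in parental cells with DMSO (KRT7, KRT8, KRT18, KRT80, KRT81 and KRT86) and none lower, where 15.4% of all genes were called higher and 16% lower; KRT81 and KRT86 enter the clone 4 counts by the choice of the members. Without the 3 libraries that stand apart the same 6 were called in clone 4 (KRT7 2.46, KRT8 0.75, KRT18 0.65, KRT80 3.12, KRT81 5.23 and KRT86 1.39). In clone 1 with DMSO 5 were called higher (KRT7, KRT18, KRT80, KRT81 and KRT86) and none lower, against 11.7% and 13.5% of all genes. Here KRT81 and KRT86 share the parental libraries used in the choice, as they do untreated, and KRT80 the DMSO libraries in both clones. KRT86 passed the filter in A375 only through clone 4. Untreated, KRT18, KRT80, KRT81 and KRT86 were called higher in each clone and no member lower, where 20.7% of all genes were higher and 30.4% lower in clone 4, and 17.1% and 31% in clone 1. Clone 4 was above clone 1 in KRT7, KRT10, KRT81 and KRT86 with DMSO (4 members; 5.88% of all genes were higher and 4.36% lower) and in KRT18, KRT81 and KRT86 untreated (3 members; 6.25% higher and 4.58% lower). With only the compared libraries in the fit, 1 of the 4 with DMSO was left. KRT10 between the clones, 0.69 ± 0.17, was lost without any of 3 of the 4 libraries (0.38 without clone 4 replicate 1).

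In the untreated comparison the split of calls depends on scaling: of all genes called, 40.4% were higher in clone 4 and 35.5% in clone 1, against 51.4% and 50.02% under quantile normalization. With that normalization the median of all genes moved by 0.126 for clone 4 and 0.141 for clone 1, while KRT80 came to 2.86 and 2.84 and KRT18 to 1.39 and 0.83. For DMSO over untreated the shares were 68.6% higher in clone 4 and 70.1% in clone 1, against 51.7% and 53.0%. Of the 8 members KRT7, KRT10 and KRT80 were higher and KRT18 lower with DMSO in clone 4, where 28.3% of all genes were higher and 13% lower; without the libraries that stand apart KRT7 was at 2.93 and KRT8 (-0.46) was called too. In clone 1 KRT7 and KRT80 were higher and KRT8 lower (30.3% and 12.9% of all genes), and in parental cells KRT10 and KRT80 were higher and KRT8 lower (12.2% and 10.3%).

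**Figure D5:**
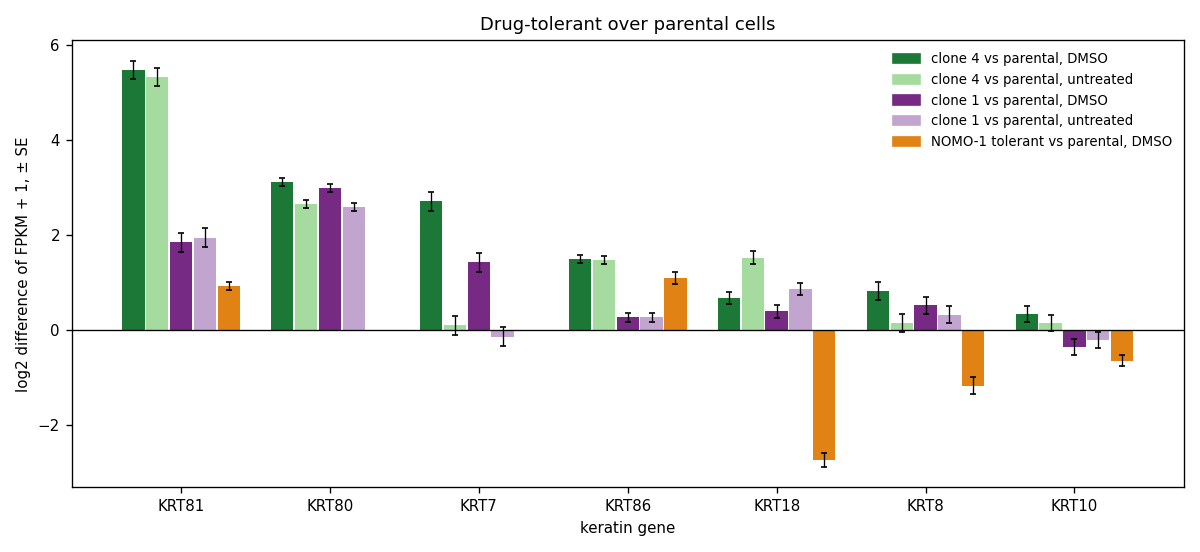
Difference of log2(FPKM + 1) between tolerant and parental cells for the 7 members above 1 FPKM, with limma SE as whiskers; KRT7 and KRT80 have no NOMO-1 bar because they were not tested there. KRT81 and KRT86 are positive in every bar, KRT7 is raised only in the 2 DMSO bars, and KRT18 and KRT8 are above 0 in A375 and below 0 in NOMO-1 (-2.73 and -1.17).

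CPI203 lowered members and raised none. In clone 4 the genes called lower were KRT7 (-0.71 ± 0.20, limma adjusted p = 0.0229), KRT10 (-0.67 ± 0.17, limma adjusted p = 0.0136), KRT80, KRT81 (-0.72 ± 0.20) and KRT86 (-0.44 ± 0.09), 5 of 8 where 14.8% of all genes were lower and 8.86% higher. The last 3 were chosen on these DMSO libraries, KRT81 and KRT86 for their height in clone 4, so their falls are descriptions and the count supports nothing. The values depend on single libraries: without clone 4 DMSO replicate 1 KRT7 was at -0.46, KRT81 at -0.40 and KRT10 at -0.36, none called, and without CPI203 replicate 1 none of KRT7, KRT10, KRT81 and KRT86 was called. With the 3 libraries that stand apart left out, which leaves 1 library in each clone 4 arm and takes it to vary like the rest, all 4 were called again (KRT7 -0.74, KRT81 -0.68, KRT10 -0.51, KRT86 -0.43). Of all genes called in clone 4, 37.5% were higher, against 48.1% under quantile normalization.

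In clone 1 KRT80 alone was called lower, with KRT8 (-0.31), KRT10 (-0.40) and KRT81 (-0.39) added when the 3 libraries that stand apart were left out (1 of 8; 13.6% of all genes were lower and 8.41% higher), and in parental cells KRT7 (-0.82 ± 0.20, limma adjusted p = 0.00688), KRT10 (-0.58 ± 0.17, limma adjusted p = 0.019) and KRT80 (3 of 8; 21.4% of all genes were lower and 15% higher). KRT80 enters these counts too by the choice of the members. The call of KRT7 was lost without parental CPI203 replicate 2 (-0.73, limma adjusted p = 0.057) and that of KRT10 without parental DMSO replicate 1 (-0.45, limma adjusted p = 0.14) or either CPI203 library. No member was called as changed to another extent in a clone than in parental cells. Of all genes, 2.29% were called so for clone 4 and 1.91% for clone 1. At an unadjusted p under 0.05 there was none for clone 1 and 1, KRT86, for clone 4, whose level there was used in the choice. For KRT80 the choice used these contrasts too, so its values are descriptions. It went from 53.1 to 10.6 FPKM in clone 4 and from 5.21 to 0.452 in parental cells. With a pseudocount of 0.1 in place of 1 a member was called for each clone, so equal responses cannot be read from these values.

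In NOMO-1, KRT81 changed after 24 h of CPI203 by -0.63 ± 0.09 in tolerant and -0.71 ± 0.09 in parental cells (limma adjusted p = 0.000761 and 0.000209), and KRT86 by -0.55 ± 0.13 and -0.91 ± 0.13 (limma adjusted p = 0.00969 and 0.000361). The third gene called was KRT8 in tolerant cells (-0.90 ± 0.18, limma adjusted p = 0.0043) and KRT18 in parental cells (-0.44 ± 0.15, limma adjusted p = 0.0336). That made 3 of 8 members lower in each, only 5 of the 8 having been tested. Of all genes tested, 20.7% were lower and 18.4% higher in tolerant cells, and 33% and 27% in parental cells. KRT8 was at only 0.502 and 0.254 FPKM in tolerant cells with CPI203. Its pseudogene copies held 93.4% and 96.6% of the summed FPKM there, at 7.10 and 7.21 FPKM, against 9.40 and 8.43 FPKM with DMSO. The size of the KRT8 fall thus depends on how fragments were split with the copies. KRT18 was lost without parental DMSO replicate 1 (-0.21, limma adjusted p = 0.198) or either CPI203 library, and KRT86 in tolerant cells without DMSO replicate 1 (-0.54) or CPI203 replicate 2 (-0.41). None of the 5 members tested was called as differing in its response between the 2 populations, where 31.8% of all genes were called at an adjusted p under 0.05. No member passed an unadjusted p under 0.05 either.

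Tolerant over parental NOMO-1 cells with DMSO gave KRT81 at 0.93 ± 0.09 and KRT86 at 1.10 ± 0.13 (limma adjusted p = 2.44e-05 and 7.84e-05). With KRT8, KRT10 and KRT18 lower, all 5 members tested were called, 2 higher where 28.2% of all genes were and 3 lower where 36.2% were. The 12 epithelial markers summed to 10.95 to 10.97 FPKM in tolerant cells with DMSO, against 64.4 to 74.3 in parental cells, chiefly ST14 and SPINT1, and so moved with KRT8 and KRT18; their part in that result was not tested, and CDH1 was at 0.0106 FPKM at most in NOMO-1.

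Genes that act beside keratins were counted from 4 lists, chosen with earlier results of these libraries known. Up to 4 genes of each list were picked by the smallest adjusted p. The values of genes named from the lists are therefore descriptions with no p-value. Of 18 desmosome and linker genes, which tie keratin filaments to junctions, 13 were tested in A375: 4 were higher and 3 lower in clone 4 than in parental cells with DMSO (median 0.26), and 5 higher and 1 lower in clone 1 (median 0.46), where the medians of all genes were 0.01 and 0.02. The shares of all genes to set beside these list counts with DMSO are 15.4% higher and 16% lower for clone 4, and 11.7% and 13.5% for clone 1. PKP2, a plakophilin of desmosomes, averaged 7.91 ± 1.13 FPKM in clone 4 and 4.18 ± 0.394 in clone 1 with DMSO (SD, n = 2 each). Parental cells averaged 0.114 ± 0.0176. On the log2 scale the clones were higher by 2.99 ± 0.12 and 2.21 ± 0.12 (SE). PKP3, another plakophilin, fell with CPI203 in all 3 populations, by 1.38 ± 0.19 in clone 4, 1.04 ± 0.19 in clone 1 and 1.69 ± 0.19 in parental cells.

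Of 26 genes that regulate keratin genes or epithelial identity, 19 were tested: 7 were higher and 6 lower in clone 4 than in parental cells with DMSO (median -0.20), and 6 higher and 4 lower in clone 1 (median 0.11). SNAI2 and SNAI1, repressors of epithelial genes, were lower in both: SNAI2 averaged 0.0501 ± 0.0352 FPKM in clone 4 and 0.0786 ± 0.0264 in clone 1, against 3.98 ± 0.264 in parental cells, and SNAI1 averaged 2.97 ± 0.568 and 3.91 ± 0.308, against 15.6 ± 1.05. TFAP2C, an activator of epidermal genes, averaged 77.5 ± 8.55 and 90.1 ± 3.19 FPKM, against 42.1 ± 3.14. RARG, a retinoic acid receptor, fell with CPI203 by 1.35 ± 0.08 in clone 4, 1.44 ± 0.08 in clone 1 and 2.23 ± 0.08 in parental cells. Of 19 regulators tested in NOMO-1, not all of them the same as in A375, 5 were higher and 10 lower in tolerant than in parental cells, where 28.2% of all genes were higher and 36.2% lower, and the lower ones included OVOL1, an epidermal repressor, at 0.0292 ± 0.0292 FPKM in tolerant cells against 9.88 ± 1.57 in parental cells.

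Of 15 keratinisation genes 7 were tested: 4 were higher and 1 lower in clone 4 than in parental cells with DMSO (median 0.68), and 2 higher and 1 lower in clone 1 (median -0.03). The lower one in both was SPRR2D, a precursor of the cornified envelope, at 0.209 ± 0.223 FPKM in clone 4 and 0.577 ± 0.0159 in clone 1, against 39.7 ± 5.41 in parental cells. Of 13 other intermediate filament genes 7 were tested, 1 being higher and 2 lower in clone 4 (median 0.04) and 4 higher and 1 lower in clone 1 (median 0.40). NES, the nestin of neural progenitors, averaged 25.3 ± 7.35 FPKM in clone 4 and 17.9 ± 0.670 in clone 1, against 114 ± 7.20 in parental cells. In NOMO-1 VIM averaged 15.6 ± 1.06 FPKM in tolerant cells, against 182 ± 22.3 in parental cells, and LMNA, which encodes the lamins A and C, 4.68 ± 0.0164 against 77.2 ± 9.52 (SD, n = 2 each; all with DMSO).

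Across the 9 A375 group means, the genes with the profile most like that of KRT81, among 5011 outside the members, were TAF10 (r = 0.987), TALDO1 (0.974), CXorf48 (0.971), ZNF585A (0.967) and ZNF528 (0.962), and 4 of them were again among the top 5 over the 18 libraries. For KRT80 they included BAX (r = 0.990), TRIM47 (0.979), FHOD3 (0.972) and FLI1 (0.963), which were again among the top 5 over the libraries. All those named were highest with DMSO, in clone 4 or clone 1, and lowest in parental cells. The points share libraries and come in 3 populations, so these r values describe a shared order of the groups and carry no test.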

How the data were processed

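RNA was measured by sequencing in 26 libraries. The deposited values are FPKM per gene; per the submitters' processing notes the authors aligned reads to hg19 with TopHat 1.4.1 and estimated expression with Cufflinks. For the annotation release and strandedness, not given in the sources used here, nothing was assumed, and depth is unknown. Groups follow the sample titles. The 8 members, the 4 gene lists and the tests were chosen with earlier results of these data known.

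Tests used log2(FPKM + 1) of the genes that reached 1 FPKM in 2 or more libraries of a line (16935 for A375, 16753 for NOMO-1, where 36 genes lack values). limma 3.58.1 in R 4.3.3, with trend and robust options, was fitted once per line: A375 had 18 libraries with 9 residual degrees of freedom (prior 3.43), and NOMO-1 8 with 4 (prior 4.87; both medians). Tests are two-sided, with Benjamini-Hochberg adjustment over all genes of a comparison. The procedure was run on simulated data with independent noise for each gene and library. That simulation held no library that stands apart, so it does not show how the calls behave with such libraries. Members, the other keratins above 1 FPKM, up to 4 genes of each list with the smallest adjusted p, and the 5 genes most like KRT81 and KRT80 are named, except 1 gene that is not reported here. Coding sequences of GENCODE 29 (GRCh38) were aligned with Biopython 1.88, and the strands of the members are those of GENCODE 29. Alternatives were median-ratio scaling, quantile normalization, limma with neither option, a pseudocount of 0.1, a stricter filter (5 FPKM) or none, a replicate block, a log2 change of at least 1, fitting the compared libraries only, omitting the 3 libraries that stand apart and each replicate in turn; the addition of gene copies and the clone against parental difference in the DMSO change were added after seeing the data.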

Additional observations from a re-analysis of the deposited data

Results flagged for a closer look

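Of the 13 keratin genes tested in A375, KRT80 is left out here although called in both clones, since its choice used the DMSO libraries. Apart from it, the change between DMSO at 6 h and untreated cells differed between a clone and parental cells in 9 cases. This was tested as the difference itself with limma. Of all genes, 14.7% were called higher and 6.03% lower for clone 4, and 15.5% and 5.98% for clone 1. In clone 4 the difference was 2.62 for KRT7, -0.85 for KRT18, 0.94 for KRT9, 0.66 for KRT14 and 0.77 for KRT222. In clone 1 it was 1.57 for KRT7, 0.56 for KRT9, 0.72 for KRT16 and 0.69 for KRT222. The median of all genes in these comparisons was 0.10 for clone 4 and 0.15 for clone 1, and 2 other scalings moved it by -0.108 to -0.144, which left KRT7 at 2.44 to 2.52 in clone 4 and 1.41 to 1.47 in clone 1 with its call. Both scalings ended the call of KRT14 in clone 4 (0.49 and 0.56). With a pseudocount of 0.1 KRT14 turned to -0.42 in clone 4, and the calls of KRT9 in both clones (0.53 and 0.37) and of KRT16 in clone 1 (1.29) were lost. KRT9 and KRT16 were under 1 FPKM in untreated cells of every population, and KRT222 was so in the clones. In A375 KRT9 and KRT16 reached 1 FPKM only in clone libraries, KRT16 only with DMSO, and KRT222 only in parental libraries. These genes were thus tested only through the groups where they are high, so their calls are descriptions. The comparison was added after the values were seen, and the clones share the parental libraries.

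KRT6B was called as falling less with CPI203 in clone 4 than in parental cells (difference 0.67). It averaged 0.431 ± 0.0642 FPKM in clone 4 with CPI203 and 0.798 ± 0.219 with DMSO, against 0.889 ± 0.105 in parental cells with CPI203 and 2.76 ± 0.251 with DMSO (SD, n = 2 each). The call was lost under 7 other alternatives besides leaving out single libraries, among them quantile normalization (0.60). KRT6B reached 1 FPKM in A375 only in the parental DMSO libraries and clone 1 DMSO replicate 2. It was thus tested through the group whose height sets the parental fall. In clone 4 it stayed under 1 FPKM, where differences of log2(FPKM + 1) understate a change, so the difference is a description.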

How the results depend on the processing

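Of 876 alternative values for the 61 member values called, 761 kept direction and call, 113 lost the call and 2 reversed. Of 1114 for the 71 not called, 40 gained a call and 1 reversed. Both sets hold contrasts used to choose the members, so these counts do not measure how firm the other calls are. With a pseudocount of 0.1, KRT80 gave 0.96 for the difference of the CPI203 effect between clone 4 and parental cells (-0.13 with 1), and -0.061 for clone 4 and -0.12 for clone 1 for that of the DMSO effect; KRT14 gave -0.42 for clone 4 there. The cause was not tested; KRT80 averaged 0.452 FPKM in parental cells with CPI203 and 1.06 untreated, and KRT14 0.316 untreated.

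The number of members called moved by over 1.5 times as follows. With a log2 change of at least 1 required, it was 1 for CPI203 in clone 4 (5 otherwise) and in parental cells (3), 3 for clone 1 against parental cells with DMSO (5) and 2 untreated (4), 2 for DMSO against untreated in clone 4 (4) and 1 in parental cells (3), 1 for the difference of that effect for either clone (3 for clone 4, 2 for clone 1), 0 for CPI203 in tolerant and in parental NOMO-1 cells (3 each) and 3 for tolerant against parental NOMO-1 cells (5). With the compared libraries alone it was 1 for CPI203 in clone 4, 4 in clone 1 (1 otherwise), 3 for clone 1 against parental cells with DMSO, 1 for clone 4 against clone 1 with DMSO (4), 2 for DMSO in clone 4 and 1 for the DMSO difference of either clone. A pseudocount of 0.1 gave 3 for CPI203 in clone 4, 1 for the DMSO difference of clone 1, and 1 in place of 0 for each difference of the CPI203 effect. No filter gave 3 for CPI203 in clone 4, 3 for clone 1 against parental cells with DMSO and 1 for the NOMO-1 difference. Median-ratio scaling gave 3 for clone 1 against parental cells with DMSO. Omitting the 3 libraries that stand apart gave 4 for CPI203 in clone 1.

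Leaving out 1 library at a time, the members called came to 1 to 5 for CPI203 in clone 4, 1 in clone 1 and 1 to 3 in parental cells; 6 to 7 for clone 4 and 3 to 5 for clone 1 against parental cells with DMSO, and 4, and 3 to 4, untreated; 3 to 6 and 2 to 3 between clones with DMSO and untreated; 3 to 4, 2 to 3 and 2 to 4 for DMSO in clone 4, clone 1 and parental cells; 2 to 4 and 1 to 3 for the DMSO difference of clone 4 and clone 1; 0 for the CPI203 difference of both; and in NOMO-1 2 to 4 and 2 to 3 for CPI203 in tolerant and parental cells, 5 between them, and 0 to 1 for the difference. A group left with 1 library was taken to vary like the others.

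The replicate numbers share only a number: in A375 10 of 36 pairs of groups deviated together (r over 0.1) and 12 against each other, in NOMO-1 4 of 6 together. With the replicate block, 3 members were called for clone 1 against parental cells with DMSO (5 without it), and no other member count moved by over 1.5 times.

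Counts over all genes moved further. With the compared libraries alone, 24 genes were called for CPI203 in clone 4 (3998 otherwise) and 13 for clone 4 against clone 1 with DMSO (1735), and a log2 change of at least 1 left 115 to 3342 per comparison.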
